A study of Homo sapiens with 2 samples.

Results

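Transcripts of EGFR, its partner receptor ERBB2, the EGFR ligands AREG, EREG, HBEGF and TGFA, the EGFR inhibitor ERRFI1 and the mucin MUC1 were followed over tumor sections by hypoxia level and by distance from hypoxic tissue. These 8 genes were taken by symbol from the 36601 features of the count tables, and all 8 were detected in both tumors. The samples were 2 tumors of 1 untreated group. They grew from MDA-MB-231, a widely used human line of triple-negative breast cancer. The cells carried a hypoxia fate-mapping reporter, which switches the color of a cell permanently after exposure to low oxygen. Tumors were harvested 18 days after implantation, frozen and cut into slices of 10 µm, and 1 section of each was placed on a Visium slide, whose barcoded spots each collect the RNA of a small area that may contain several cells. The host animal and separate animals for the tumors are not named in the labels, so the spread between the sections may be partly technical. The question of the study is whether cells once exposed to hypoxia retain that expression program in oxygenated regions. The fluorescence images were not used here, so no spot was sorted by reporter state.

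EGFR is a receptor tyrosine kinase of the ERBB family. Its ligands, among them TGFA, HBEGF, AREG and EREG, are made as membrane-bound precursors and freed mainly by the protease ADAM17, and ligand binding pairs EGFR with itself or with ERBB2, which has no known ligand of its own. ERRFI1, also called MIG6, binds the kinase domains of EGFR and ERBB2 and blocks them, and MUC1 is a membrane mucin known as a binding partner and substrate of EGFR in breast cancer cells. EGFR is high in many triple-negative breast tumors, and the hypoxia-inducible factors (HIFs) are transcription factors that switch on genes such as those of glycolysis when oxygen is low.

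The section of tumor 1 held 58661164 UMIs (unique molecular identifiers, counted molecules) in 2536 spots, and that of tumor 2 held 39735490 in 2841 spots of at least 500 UMIs, with medians of 23574 and 15895 UMIs per spot. Spots in a low-UMI area, separated by a threshold on smoothed UMIs, made up 20.8% of the spots in tumor 1 and 29.0% in tumor 2. Of the identity markers of the line, VIM stood at 5639 and 5548 CPM (counts per 1000000 UMIs) and CD44 at 405 and 449 CPM, against 0.119 and 0.126 CPM of the estrogen receptor ESR1, 0.0511 and 0.0503 CPM of PGR and 0.0511 and 0.0252 CPM of CDH1. EPCAM, which is low in this line, stood at 19.7 and 17.8 CPM. Host transcripts counted under human genes cannot be separated from those of the tumor cells, and lower transcript levels in a zone cannot be told apart from fewer cells that carry them. The sections shared 1624 spot barcodes, which mark the same places of the array design and not the same tissue.

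In the whole sections EGFR gave 11793 and 8270 UMIs (201 and 208 CPM) and ERBB2 1535 and 1005 UMIs (26.2 and 25.3 CPM) in tumors 1 and 2. Among the ligands, HBEGF gave 3170 and 2333 UMIs, AREG 1765 and 1265, TGFA 1401 and 591, and EREG 139 and 121. ERRFI1 gave 22782 and 14962 UMIs (388 and 377 CPM) and MUC1 1003 and 586 (17.1 and 14.7 CPM). EREG was thus counted in far fewer molecules than the others, and its zone values carry the widest errors. Of the other ligands, EGF stood at 0.733 and 0.554 CPM and BTC at 0.119 and 0.176 CPM, and the receptor ERBB4 had no UMI in either section.

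The first comparison asked how these transcripts differ between the most and the least hypoxic tissue. Spots were ranked by a hypoxia score, the mean standardized level of 28 genes known to rise in low oxygen, averaged over adjacent spots, and the top quartile (the high-score zone) was set against the bottom quartile of each section. None of the 8 genes is in the score, although score and levels come from the same libraries. The inhibitor ERRFI1 was 3.08-fold and the ligand TGFA 2.85-fold higher in the high-score zone, EGFR was 1.31-fold and MUC1 1.55-fold higher, and the other 3 ligands and ERBB2 did not pass the test. Thus 4 of 8 genes were called higher and 0 lower at an adjusted p of 0.05, where 9.52% of all 14136 genes tested were called higher and 7.7% lower (17.2% in either direction). The median log2 fold change of the 8 was 0.164, against 0.00361 over all genes tested. The 8 genes were chosen with earlier results of these data known, so the shares describe this set and are not a test of it.

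ERRFI1 had 649 CPM in high-score and 232 CPM in low-score spots of tumor 1, and 608 CPM in high-score and 211 CPM in low-score spots of tumor 2. Both high-score values lay above both low-score values, and the log2 difference was almost the same in each tumor (1.61 and 1.64). The fitted fold was 3.08 (log2 1.62 ± 0.08 SE, 2 tumors), with an adjusted p of 1.79e-09 by edgeR's quasi-likelihood test with Benjamini-Hochberg adjustment. By size of the fold, ERRFI1 stood in place 91 from the top of the 14136 genes tested, among which the score genes were not counted.

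TGFA, the soluble ligand first found in transformed cells, had 42.7 CPM in high-score and 13.8 CPM in low-score spots of tumor 1, and 21.6 CPM in high-score and 11.1 CPM in low-score spots of tumor 2. It was higher in the high-score zone of both tumors, by 1.74 on the log2 scale in tumor 1 and by 1.06 in tumor 2, and whether these differ was not tested. The fit gave 2.85-fold (log2 1.51 ± 0.15 SE, edgeR adjusted p = 4.94e-06, 2 tumors), and the value of tumor 2 lay below its 95% interval of 1.196 to 1.83.

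The upstream DNA of ERRFI1 and TGFA is shown because these 2 genes had the largest differences, and that of AREG because its level did not follow them. The sequences are the 250 bases before annotated start sites, from RefSeq on GRCh38.p14, on the strand of the gene, 5′ to 3′. Capitals mark ACGTG or GCGTG, the core letters of HIF binding sites, searched on both strands, so that CACGT and CACGC count as well.
ERRFI1, chr1:8026310-8026559, minus strand: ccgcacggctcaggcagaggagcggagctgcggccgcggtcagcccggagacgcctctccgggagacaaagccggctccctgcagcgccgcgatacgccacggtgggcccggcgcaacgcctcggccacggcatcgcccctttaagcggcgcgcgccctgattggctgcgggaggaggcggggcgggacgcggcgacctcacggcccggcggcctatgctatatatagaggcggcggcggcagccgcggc
TGFA, first start site, chr2:70553827-70554076, minus strand: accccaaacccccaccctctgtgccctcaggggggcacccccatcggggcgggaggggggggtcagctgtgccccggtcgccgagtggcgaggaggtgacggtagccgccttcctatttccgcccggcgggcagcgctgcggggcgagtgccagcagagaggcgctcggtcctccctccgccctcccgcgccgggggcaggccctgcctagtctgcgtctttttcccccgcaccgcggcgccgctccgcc
TGFA, second start site, chr2:70553447-70553696, minus strand: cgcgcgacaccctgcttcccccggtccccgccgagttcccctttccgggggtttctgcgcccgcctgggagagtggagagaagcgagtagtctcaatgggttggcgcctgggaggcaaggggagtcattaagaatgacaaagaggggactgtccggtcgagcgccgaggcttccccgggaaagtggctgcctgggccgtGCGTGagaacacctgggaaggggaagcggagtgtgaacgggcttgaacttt
AREG, chr4:74444886-74445135, plus strand: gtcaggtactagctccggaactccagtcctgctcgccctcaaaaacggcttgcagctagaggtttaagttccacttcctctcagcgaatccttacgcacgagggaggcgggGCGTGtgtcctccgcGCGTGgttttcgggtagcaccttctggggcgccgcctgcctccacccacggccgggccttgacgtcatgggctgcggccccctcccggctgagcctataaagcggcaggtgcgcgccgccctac

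The ERRFI1 window held no such core, nor did the 50 bases after its start, and the first TGFA start had none either. The second TGFA start had 1 core, beginning 51 bases before the start, whereas AREG had 2, at 139 and 124 bases before it. In the windows of 300 bases that include 50 bases after the start, cores were also found in EREG, at 249 bases before and 39 after the start, and in HBEGF, 26 bases after it, and none were found for EGFR, ERBB2 or MUC1. Of 35116 such windows in RefSeq, 48.5% held at least 1 of the cores. All 8 genes were matched to at least 1 window.

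EGFR, on chromosome 7 at 55019017 to 55211628 (GRCh38.p14), had 221 CPM in high-score and 189 CPM in low-score spots of tumor 1, and 224 CPM in high-score and 178 CPM in low-score spots of tumor 2. The difference was small and in the same direction in each tumor (log2 0.35 and 0.44). It passed at a fold of 1.31 (log2 0.39 ± 0.08 SE, edgeR adjusted p = 0.00278), and did not pass without the tumor block (adjusted p = 0.0589) or with DESeq2 (adjusted p = 0.0581). ERBB2, on chromosome 17, had 24.3 CPM in high-score and 29.6 CPM in low-score spots of tumor 1, and 21.9 CPM in high-score and 29.2 CPM in low-score spots of tumor 2. Its log2 value of -0.22 ± 0.11 (SE) did not pass (edgeR adjusted p = 0.195), with a 95% interval of -0.46 to 0.02, but it passed with scaling by library size alone (-0.34, adjusted p = 0.0355), where the median of all genes tested was -0.115, and without spots rich in markers of other cells (-0.36, adjusted p = 0.0322).

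HBEGF, a heparin-binding ligand encoded on chromosome 5, had 50.8 CPM in high-score and 58.4 CPM in low-score spots of tumor 1, and 49.1 CPM in high-score and 69.8 CPM in low-score spots of tumor 2. It pointed the other way from TGFA, but the log2 value of -0.23 ± 0.10 (SE) did not pass (edgeR adjusted p = 0.12), although it passed in 3 of 13 alternative settings. AREG, a ligand that mammary ducts of mice need to grow, differed in direction between the tumors (log2 -0.21 and 0.11), and the fit gave -0.07 ± 0.11 (SE, edgeR adjusted p = 0.733). EREG, which lies on chromosome 4 with 56386 bases between its end and the start of AREG, rested on 26 high-score and 52 low-score UMIs in tumor 1 and gave -0.11 ± 0.30 (SE, edgeR adjusted p = 0.841). The 95% intervals reached from -0.30 to 0.17 for AREG and from -0.75 to 0.53 for EREG, so a difference of the size seen for TGFA lay outside both.

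MUC1, on chromosome 1 at 155185824 to 155192915, had 19.5 CPM in high-score and 14.8 CPM in low-score spots of tumor 1, and 18.2 CPM in high-score and 11.4 CPM in low-score spots of tumor 2. It was 1.55-fold higher in the high-score zone (log2 0.63 ± 0.14 SE, edgeR adjusted p = 0.00578). This call was lost without the tumor block (adjusted p = 0.0852), with DESeq2 (adjusted p = 0.331) and with spots thinned to 2000 UMIs (adjusted p = 0.262). The calls of ERRFI1 and TGFA held in 13 of 13 alternative settings, with log2 values of 1.451 to 1.78 for ERRFI1 and 1.196 to 1.54 for TGFA.

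Markers of other cells moved with the quartiles. Macrophage and granulocyte markers, most of them CD68 molecules, were higher in the high-score zone of both tumors, at 245 CPM in high-score and 175 CPM in low-score spots of tumor 1 and 209 CPM in high-score and 172 CPM in low-score spots of tumor 2, and their part in the differences was not tested. Fibroblast markers ran in opposite directions in the tumors. Summed fibroblast markers stood at 1081 CPM in high-score and 830 CPM in low-score spots of tumor 1, and at 763 CPM in high-score and 1798 CPM in low-score spots of tumor 2. Skeletal muscle markers stood at 3.60 CPM in high-score and 505 CPM in low-score spots of tumor 2, and endothelial markers stayed at or below 4.39 CPM in the quartiles of both. In tumor 2 the low-UMI area held 9.14% of high-score and 51.3% of low-score spots. With the low-UMI area left out, or with spots rich in other-cell markers left out, EGFR, TGFA, ERRFI1 and MUC1 all passed again. Over the whole sections most molecules of these markers were COL1A1, COL1A2, COL3A1, KRT10 and CD68. In tumors 1 and 2 the fibroblast marker DCN stood at 0.665 and 0.201 CPM and the leukocyte marker PTPRC at 0.205 and 0.277 CPM. Spots rich in these markers are thus not known to be the spots rich in host cells.

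**Figure D1:**
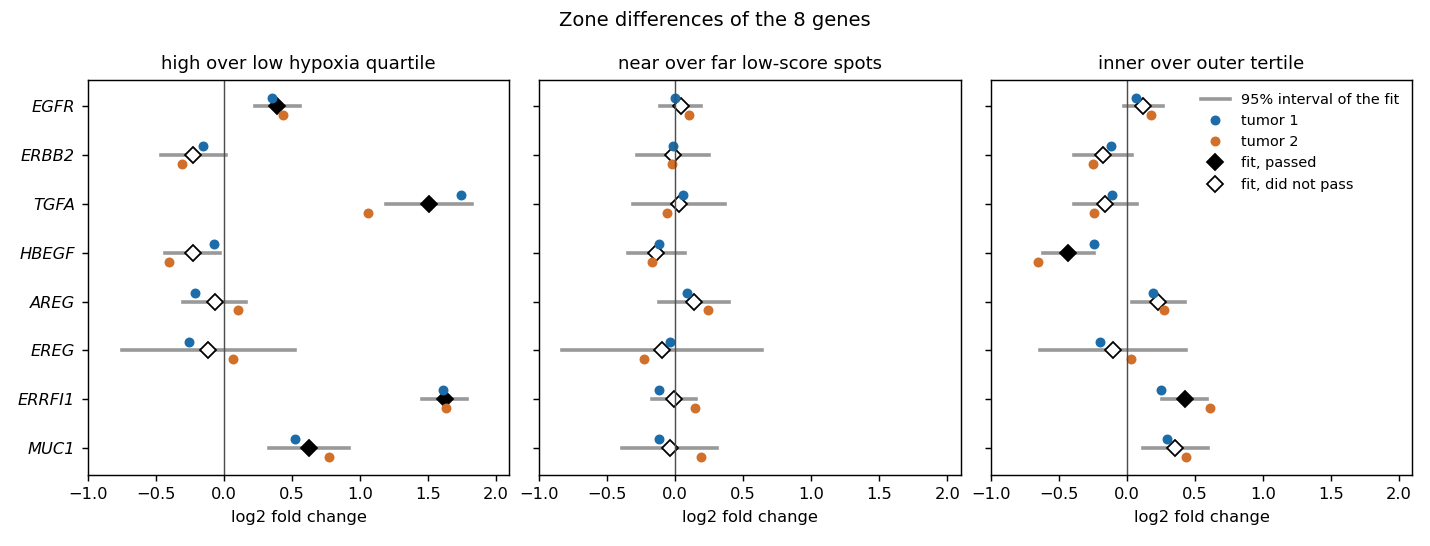
Log2 fold changes of the 8 genes (horizontal axis) for high over low hypoxia quartile, near over far low-score spots and inner over outer tertile. Diamonds are the fits over both tumors (filled where the adjusted p was at most 0.05), bars their 95% intervals and dots the single tumors; TGFA and ERRFI1 lie above 1 in the left panel and near 0 in the middle one.

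The quartiles leave out the spots between, so each section was also cut into 10 nearly equal groups by score, with exact Poisson 95% intervals that cover counting error only. ERRFI1 climbed with the score: in tumor 1 it had 207 CPM in the lowest and 741 CPM in the highest decile and was higher at each of 9 steps, and in tumor 2 it had 218 and 794 CPM and was higher at 8 of 9 steps. Neighbouring deciles had separate intervals at 8 of 9 steps in tumor 1 and 6 of 9 in tumor 2. The overlapping steps of tumor 2 were those between deciles 1 and 4, at 218, 200, 211 and 232 CPM. Its level thus differed between moderate and high scores in both tumors, but did not sort the lowest scores of tumor 2. There, 71.6% of decile 1 spots and 10.9% of decile 10 spots were in the low-UMI area. Median UMIs per spot were 1303 in decile 1 and 14415 in decile 10. Muscle markers stood at 585 CPM in decile 1 and 2.76 CPM in decile 10 of tumor 2. The part of depth and other tissue in these levels was not tested. The levels of TGFA had their largest step in CPM at the top: decile 9 had 35.4 CPM and decile 10 had 55.3 CPM in tumor 1, and decile 9 had 18.0 CPM and decile 10 had 28.6 CPM in tumor 2. In tumor 2 TGFA stayed between 6.203 and 15.8 CPM over the lower 8 deciles, with its lowest level in decile 5 and 12.97 CPM in decile 6, a larger step as a fold than the last one.

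EGFR had 191 CPM in decile 1 and 240 CPM in decile 10 of tumor 1, and 171 and 242 CPM in tumor 2, with overlapping intervals at 8 of 9 neighbouring steps in each. MUC1 had 14.4 and 19.6 CPM in the lowest and highest deciles of tumor 1 and 9.15 and 17.8 CPM in those of tumor 2, and all its neighbouring deciles overlapped. Its end deciles overlapped as well in both tumors, so its difference rests on the pooled quartiles. AREG was lowest in the top decile of both sections, at 23.04 and 23.11 CPM, yet in tumor 2 its highest level, 38.2 CPM, was in decile 9 right beside it, with intervals that did not overlap. A comparison of quartiles averages over that step. HBEGF was lowest in decile 10 of tumor 1 (48.1 CPM) and in decile 9 of tumor 2 (44.2 CPM), and ERBB2 ranged from 23.3 to 30.8 CPM and from 20.9 to 30.2 CPM with no pair of neighbours apart.

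**Figure D2:**
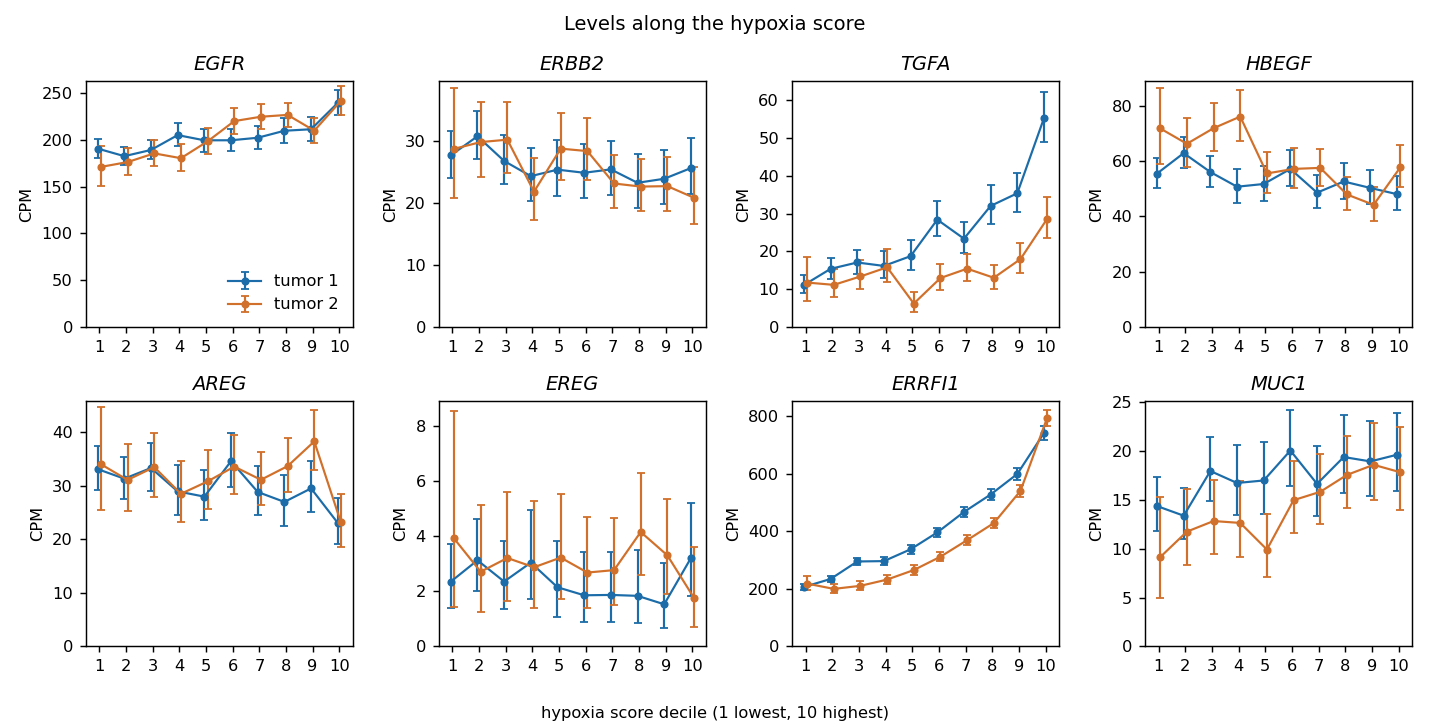
Level of each gene in CPM (vertical axis, from 0) in 10 nearly equal groups of spots by hypoxia score (horizontal axis, lowest to highest), with exact Poisson 95% intervals, for both tumors. ERRFI1 spans 207 to 741 CPM in tumor 1 and 199.9 to 794 CPM in tumor 2, whereas AREG is lowest in the top decile of both.

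Distance from the hypoxic zone was measured in steps between adjacent spots. ERRFI1 had 649 CPM in the high-score zone of tumor 1 and 420, 314, 279, 280 and 276 CPM at 1, 2, 3, 4 and 5 or more steps, and 608, 374, 308, 268, 251 and 212 CPM in tumor 2. Most of its decline lay within 2 steps, and beyond 3 steps tumor 1 was level while tumor 2 went on to lower values. TGFA had 42.7, 25.995, 19.4, 17.8, 13.3 and 15.4 CPM in the same order in tumor 1, and 21.6, 13.3, 11.6, 12.1, 11.3 and 11.99 CPM in tumor 2. In tumor 2, TGFA thus reached its outer level at the first step.

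EGFR had 221 CPM in the zone and 201 CPM at 1 step in tumor 1, while in tumor 2 it had 224, 224, 211 and 220 CPM up to 3 steps and 186 and 175 CPM beyond. HBEGF ran in the opposite direction, with 50.8 CPM in the zone and 59.2 CPM at 5 or more steps in tumor 1, and 49.1 and 70.9 CPM in tumor 2, and the end intervals were apart in both. MUC1 had 19.5 CPM in the zone and 15.9 CPM at 5 or more steps in tumor 1, where the intervals overlapped, and 18.2 and 10.4 CPM in tumor 2, where they did not. Neighbouring rings had overlapping intervals at every step in both tumors for HBEGF, MUC1, ERBB2, AREG and EREG, and for AREG and EREG the end rings overlapped too. The outermost ring of tumor 2 also differed in other tissue, with 3.60 CPM of muscle markers in the zone and 597 CPM in that ring, and 45.5% of its spots were in the low-UMI area; their part in the levels there was not tested.

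**Figure D3:**
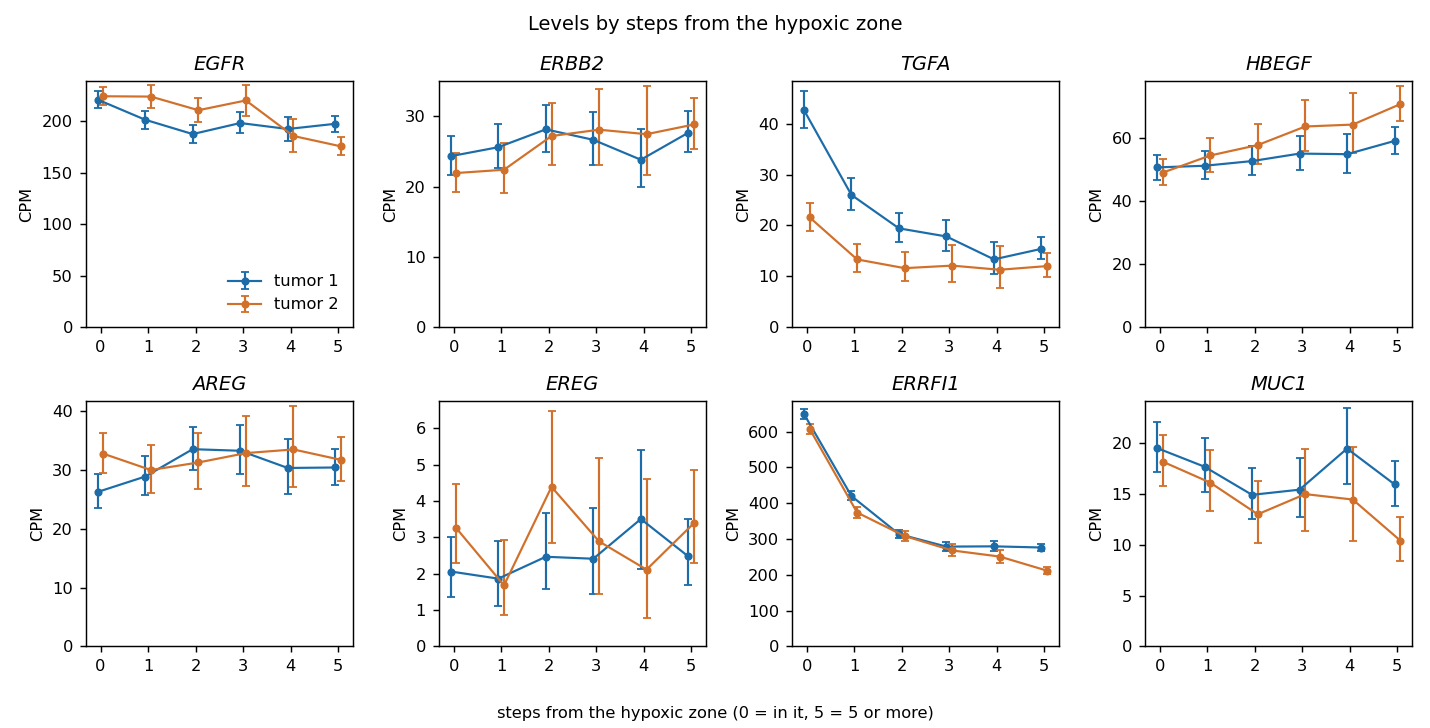
Level of each gene in CPM (vertical axis, from 0) by steps from the high-score zone (horizontal axis, 0 is the zone itself and 5 stands for 5 or more), with exact Poisson 95% intervals, for both tumors. ERRFI1 and TGFA are highest in the zone, and HBEGF is highest in the outermost ring of both sections.

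Since the score also falls with distance, low-score spots near the hypoxic zone were set against low-score spots far from it at equal score, which is the closest these counts come to the study's question. There were 363 spots on each side in tumor 1 and 296 in tumor 2, all below the median score. None of the 8 genes passed: 0 were called higher and 0 lower, where 0.0531% of the 13184 genes tested were called, 7 in number, all lower near the zone, and all skeletal muscle genes (MYH4, TNNT3, MYH1, TNNC2, CKM, ACTA1 and TNNI2, named after their values were seen). At an unadjusted p under 0.05 there were 519 genes, and DESeq2 called 0. Muscle markers stood at 12.8 CPM in near and 1223 CPM in far spots of tumor 2.

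ERRFI1 had 251 CPM in near and 273 CPM in far spots of tumor 1, and 234 CPM in near and 210.4 CPM in far spots of tumor 2. The tumors pointed in opposite directions, and the fit gave a log2 value of -0.01 with a 95% interval of -0.17 to 0.15 (edgeR adjusted p = 0.999). The upper bound of 0.15 stands beside 1.62 between the score quartiles, whose low-score spots are partly the same. Matching on a score that ERRFI1 itself follows can narrow its difference, so these values answer different questions. Without matching, the near against far log2 value of ERRFI1 was 0.1524, which did not pass. TGFA had 16.2 CPM in near and 15.5 CPM in far spots of tumor 1, and 12.6 CPM in near and 13.05 CPM in far spots of tumor 2, with an interval of -0.31 to 0.37 on the log2 scale. The intervals were -0.11 to 0.19 for EGFR and -0.39 to 0.31 for MUC1. Over the 8 genes the log2 values ran from -0.14 for HBEGF to 0.14 for AREG, with a median of -0.0117 against -0.00255 over all genes tested.

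Position in the section was compared next, with the inner against the outer tertile of spots by steps from the tissue border, zones that no expression value enters. In tumor 1 the mean hypoxia score was 0.0131 in inner and 0.0144 in outer spots. In tumor 2 it was -0.0405 in inner and -0.00274 in outer spots, so the inner tertile did not have the higher mean score. ERRFI1 was higher inside and HBEGF lower inside, so 1 of 8 genes was called higher and 1 lower, where 2.3% of 14758 genes tested were called higher and 3.36% lower (5.66% in all). ERRFI1 had 430 CPM in inner and 360 CPM in outer spots of tumor 1, and 469 CPM in inner and 312 CPM in outer spots of tumor 2. Tumor 2 had the larger log2 difference (0.25 in tumor 1 and 0.61 in tumor 2). The fitted fold was 1.35 (log2 0.43 ± 0.08 SE, edgeR adjusted p = 0.00217), and without the tumor block it did not pass (adjusted p = 0.249).

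HBEGF had 49.0 CPM in inner and 57.4 CPM in outer spots of tumor 1, and 43.8 CPM in inner and 70.1 CPM in outer spots of tumor 2. It was lower inside in both tumors (log2 -0.24 in tumor 1 and -0.65 in tumor 2), with a fitted value of -0.43 ± 0.09 (SE, edgeR adjusted p = 0.00642), and the call was lost with library size alone (adjusted p = 0.0553), without the tumor block (adjusted p = 0.206) and with DESeq2 (adjusted p = 0.372). TGFA did not follow ERRFI1 here: its log2 value was -0.16 ± 0.11 (SE, edgeR adjusted p = 0.475), with 24.2 CPM in inner and 25.9 CPM in outer spots of tumor 1 and 13.6 CPM in inner and 16.3 CPM in outer spots of tumor 2. AREG, at 0.23 ± 0.09, and MUC1, at 0.36 ± 0.11 (SE), did not pass (edgeR adjusted p = 0.165 and 0.0745), though MUC1 passed without spots rich in other-cell markers (0.42, adjusted p = 0.0228) and with quartiles in place of tertiles (0.53, adjusted p = 0.0241).

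The low-UMI area made up 40.4% of inner and 6.202% of outer spots in tumor 1, and 55.1% of inner and 10.1% of outer spots in tumor 2. Fibroblast markers stood at 499 CPM in inner and 1398 CPM in outer spots of tumor 1, and at 359 CPM in inner and 1898 CPM in outer spots of tumor 2. Skeletal muscle markers stood at 4.99 CPM in inner and 291 CPM in outer spots of tumor 2. The calls of ERRFI1 and HBEGF held with the low-UMI area left out and with spots rich in other-cell markers left out. The part of other tissue and of the low-UMI area in the differences was not tested.

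**Figure D4:**
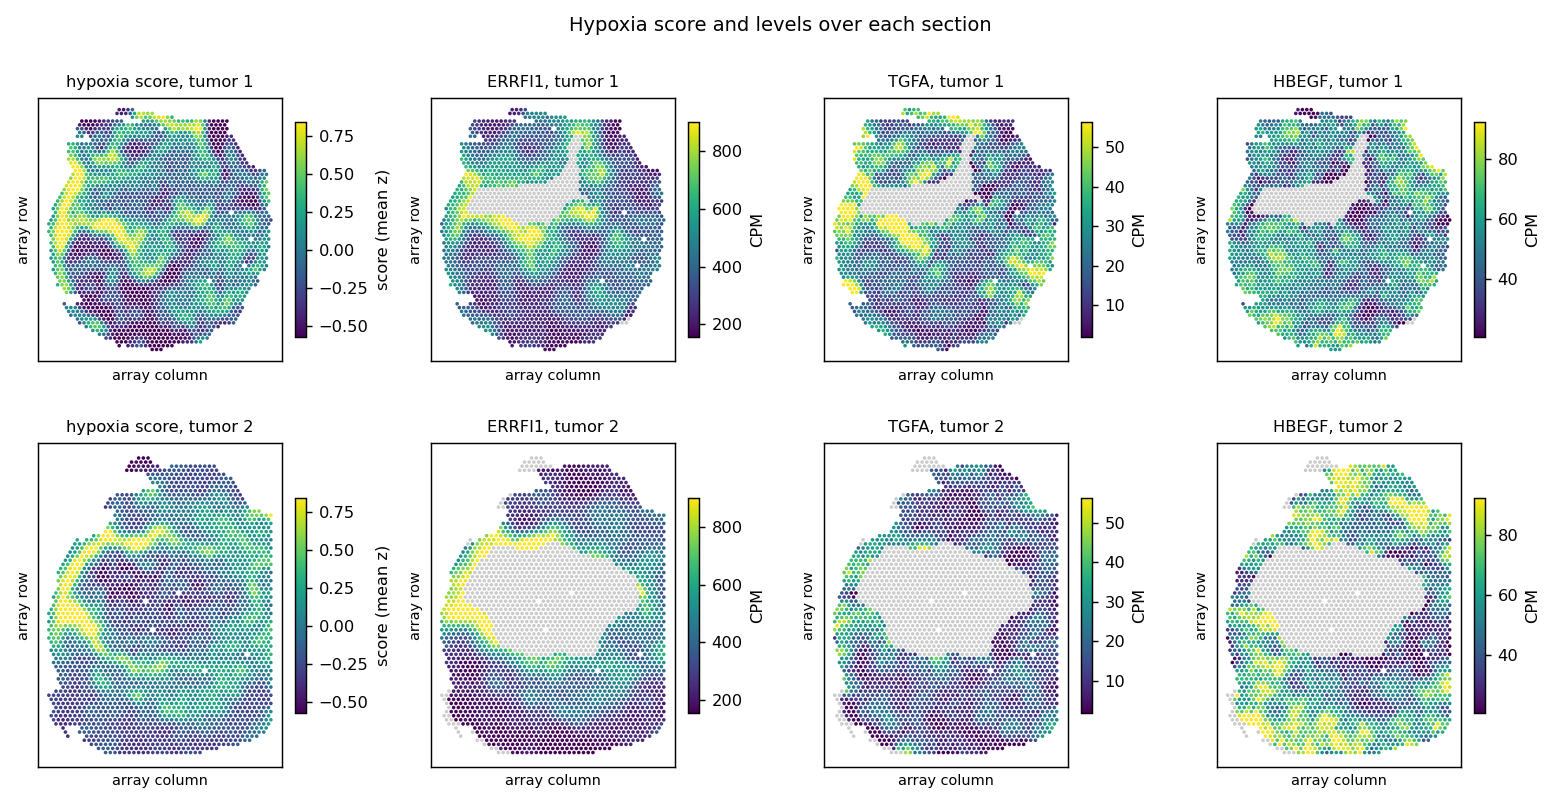
Hypoxia score and levels of ERRFI1, TGFA and HBEGF over both sections, with array columns across and array rows down; each spot is coloured by the score or by the CPM over all spots within 2 steps, and is grey where these hold under 100000 UMIs. ERRFI1 is bright along the bands of high score, where it had 649 CPM in tumor 1 and 608 CPM in tumor 2.

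The low-UMI area was compared with other spots of equal hypoxia score, a comparison chosen after the maps were seen. It took 528 spots per side in tumor 1 and 701 in tumor 2, with medians of 4592 UMIs in the area and 27062 outside it in tumor 1, and 1553 UMIs in the area and 20048 outside it in tumor 2. ERRFI1 was the 1 of 8 genes that passed, and it was higher in the area, where 2.51% of 13451 genes tested were called higher and 0.848% lower (3.36% in all). It had 575 CPM in the area and 392 CPM outside it in tumor 1, and 558 CPM in the area and 269 CPM outside it in tumor 2. The log2 fold change was 0.91 ± 0.13 (SE, edgeR adjusted p = 3.9e-05), from 1560 UMIs in the area and 5678 outside it in tumor 1 and from 688 and 3631 in tumor 2, and it did not pass without the tumor block (adjusted p = 0.158). Fibroblast markers stood at 839 CPM in the area and 768 CPM outside it in tumor 1, and at 1408 CPM in the area and 1233 CPM outside it in tumor 2. Skeletal muscle markers stood at 62.5 CPM in the area and 262 CPM outside it in tumor 2. The score averages log2 levels of single spots, which are noisier and can come out lower where UMIs are few. An equal score in and outside the area therefore need not mean equal hypoxia. The part of depth and of these markers in the difference was not tested.

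TGFA, at 0.05 ± 0.19 (SE), did not pass there (edgeR adjusted p = 0.937), with a 95% interval of -0.35 to 0.44. Neither did HBEGF at -0.38 ± 0.14, ERBB2 at -0.50 ± 0.20 or EGFR at 0.22 ± 0.11 (SE; edgeR adjusted p = 0.143, 0.181 and 0.347), and HBEGF and ERBB2 passed with library size alone. Of a list of other EGFR pathway genes, 2 of 48 tested were higher (4.17%, beside 2.51% of all genes tested), MYC (log2 0.65 ± 0.12 SE) and SPRY2 (0.65 ± 0.17 SE), a feedback inhibitor of the receptor's signal (edgeR adjusted p = 0.00218 and 0.0312).

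To see which genes vary in space like these, sections were cut into patches of 6 array rows by 12 array columns (74 in tumor 1 and 83 in tumor 2), and log2 levels were correlated over the patches of a section. Patches share a library, and those with few UMIs are noisier, so the values are descriptions. ERRFI1 ran with the hypoxia score at r of 0.818 in tumor 1 and 0.551 in tumor 2, and against log2 UMIs of the patch at -0.571 and -0.425. Among 6528 genes, the most alike were BNIP3 (mean r 0.912), a mitophagy receptor, NDRG1 (0.887), a stress-response gene, and STC1 (0.876), a secreted glycoprotein; BNIP3 and NDRG1 are score genes and STC1 is not. TGFA ran with the score at 0.689 and 0.376, and its most alike genes were TNIP1 (0.567), GAPDH (0.557) and ANGPTL4 (0.551, a score gene).

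For the other genes the highest mean r was lower than for ERRFI1: the leading genes were MAP2K1 for EGFR (mean r 0.540), ARFGEF2 for ERBB2 (0.628), CUL5 for AREG (0.584), FAM20B for HBEGF (0.676) and MRRF for MUC1 (0.562). These genes had fewer UMIs than ERRFI1. With log2 UMIs of the patch, r was 0.579 in tumor 1 and 0.167 in tumor 2 for ERBB2, and 0.396 and 0.337 for HBEGF. It was 0.247 and 0.201 for AREG, 0.035 and 0.445 for MUC1, and -0.215 and 0.089 for EGFR. The part of depth and counting noise in the likeness was not tested. MAP2K1 is a kinase of the RAS to MAPK cascade that EGFR activates. EREG was not ranked, since it was under 10 CPM. Between the 8 genes themselves, EGFR and ERRFI1 were the pair with r above 0.3 in both tumors, at 0.536 and 0.316. For TGFA and ERRFI1 r was 0.595 in tumor 1 and 0.034 in tumor 2. AREG and EREG, though neighbours on the chromosome, had r of 0.146 and 0.032.

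The rest of the pathway was described with a list of 54 genes, from receptors and ligands to outputs of the MAPK cascade. Between score quartiles 48 of them were tested, and 8 were called higher (16.7%) and 3 lower (6.25%), beside 9.52% and 7.7% of all genes tested. Their median log2 value was 0.051, and the list was chosen with earlier results of these data known. In ligand shedding, ADAM17 (log2 0.43 ± 0.09 SE, edgeR adjusted p = 0.00459) and RHBDF2 (0.49 ± 0.13), a partner that carries ADAM17 to the cell surface, were higher. Thus 2 of 4 genes of that step were called higher and 0 lower, beside 9.52% and 7.7% of all genes tested. ADAM10 (-0.05) and RHBDF1 (0.004) did not pass, and each changed sign between the tumors. These 4 genes are too few to compare with the shares. ADAM17 had 54.1 CPM in high-score and 45.9 CPM in low-score spots of tumor 1, and 53.2 CPM in high-score and 39.8 CPM in low-score spots of tumor 2.

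Among outputs of the cascade, 4 of 15 were higher (26.7%) and 1 lower (6.67%), beside 9.52% and 7.7% of all genes tested. DUSP5, a phosphatase that turns off nuclear ERK, had 136 CPM in high-score and 88.0 CPM in low-score spots of tumor 1, and 140 CPM in high-score and 91.2 CPM in low-score spots of tumor 2 (log2 0.74 ± 0.08 SE, edgeR adjusted p = 1.16e-05). DUSP6, its cytoplasmic relative, EGR1, an immediate early factor, and MYC were higher by 0.37, 0.37 and 0.29 on the log2 scale, while CCND1, the G1 cyclin, was lower (-0.35 ± 0.08 SE, edgeR adjusted p = 0.00618). MAP2K1 was higher by 0.48 ± 0.08 (SE), as 1 of 10 genes of the RAS to MAPK step, a share near the 9.52% of all genes tested. Of the other receptor brakes, the ubiquitin ligase CBLB was higher (0.80 ± 0.20 SE, with 1.025 in tumor 1 and 0.42 in tumor 2) and UBASH3B, which opposes ligases of the CBL family, lower (-0.47 ± 0.08 SE), and 7 of 9 did not pass. That is 11.1% called higher and 11.1% lower, near the 9.52% and 7.7% of all genes tested. The ligand NRG1, which acts through ERBB3 and ERBB4, was lower (-0.39 ± 0.12 SE, edgeR adjusted p = 0.0352). It was 1 of 2 ligands tested, from 7 in the list, beside 7.7% of all genes tested that were called lower. These 2 genes are too few to compare with that share. Calls of pathway genes were not checked under the alternative settings.

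**Figure D5:**
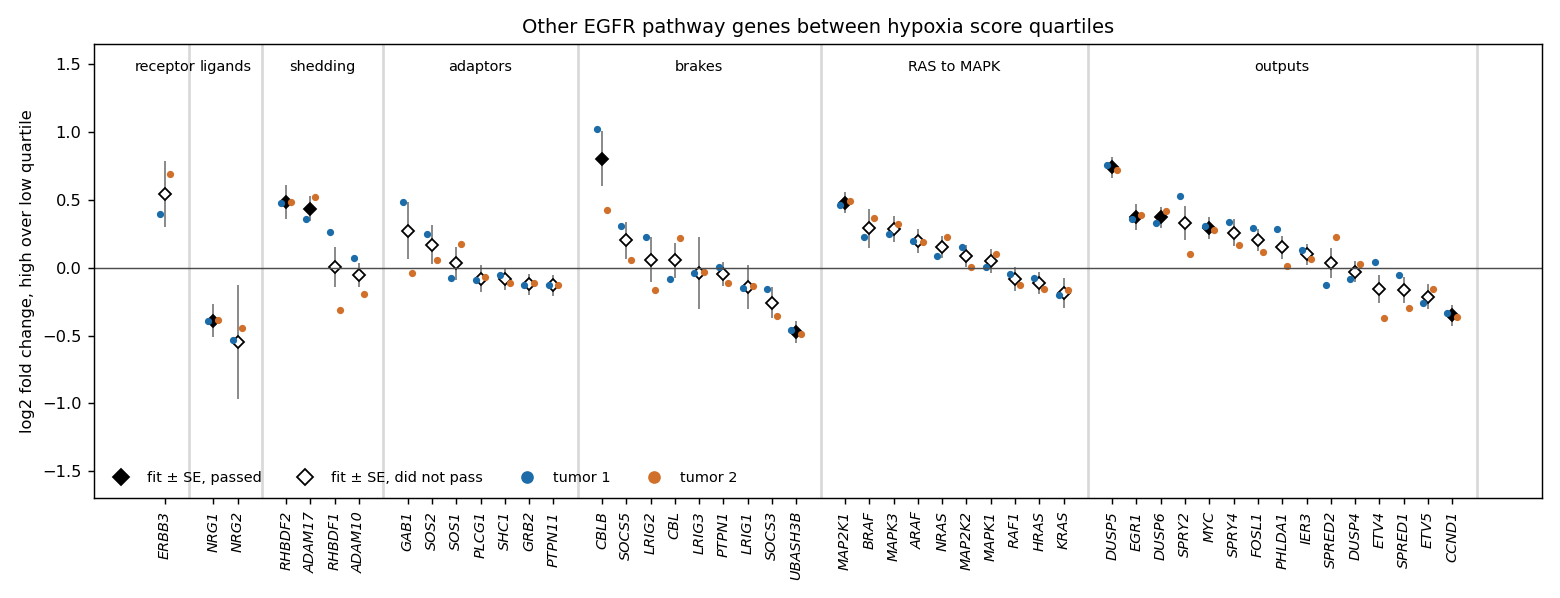
Log2 fold change of high over low hypoxia quartile (vertical axis) for the 48 tested genes of the EGFR pathway list, grouped by role. Diamonds with bars are fits with SE, filled where the adjusted p was at most 0.05, and dots are single tumors; CBLB and DUSP5 have the highest filled values and UBASH3B the lowest.

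For near against far spots 0 of 47 tested genes passed, beside 0.0531% of all genes tested. For inner against outer spots 1 of 49 was higher (2.04%), near the 2.3% of all genes tested, and 0 were lower; it was DUSP5 (log2 0.30 ± 0.07 SE, edgeR adjusted p = 0.016). Among 12 other mucins and known partners of MUC1, 4 could be tested between the quartiles: LGALS3, the galectin that binds MUC1, was higher by 0.26 and CTNNB1, which encodes beta-catenin, lower at -0.30 (edgeR adjusted p = 0.033 and 0.0383). Thus 1 of 4 was called higher and 1 lower, beside 9.52% and 7.7% of all genes tested, and 4 genes are too few to compare with these shares. Tumor 2 carried most of the CTNNB1 value (-0.10 in tumor 1 and -0.50 in tumor 2). CTNNB1 was also lower inside the sections (-0.30, edgeR adjusted p = 0.0207), at -0.175 in tumor 1 and -0.43 in tumor 2. It was the 1 called lower of 5 genes of this list tested there, beside 3.36% of all genes tested.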

How the data were processed

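Visium sections of 2 MDA-MB-231 tumors, 1 per tumor, were analysed. The authors deposited raw UMI counts for each gene in each spot. Per the file headers Space Ranger 1.3.0 made them, and the submitters' processing notes name hg38. The tables hold 36601 features, and of 4992 array positions 2536 and 2846 lay over tissue. Of these, 2536 and 2841 with at least 500 UMIs were kept, holding 58661164 and 39735490 UMIs. The aligner's settings are not given in the sources used here, and images were not used.

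For the hypoxia score, UMIs per 10000 plus 1 were put on a log2 scale, z-scored and averaged over 28 genes. Each of these genes was found in 5% or more of the spots in both tumors. The result was smoothed over neighbours. Zones were quartiles of the score, low-score spots near and far from the top quartile matched on the score in 20 bins, and tertiles by distance from the border, meaning empty areas of 5 positions or more. Counts were summed per tumor and zone, because spots within 1 section do not replicate each other. The tumor stood as a block because both zones of a pair come from the same section, which is where the pairing comes from. The sums went into edgeR 4.0.16 (filterByExpr, TMM, quasi-likelihood F test), which left 1 residual degree of freedom and borrowed 14.49, 13.81 and 18.12 prior degrees of freedom in the 3 comparisons. Score genes were not tested between score quartiles. P-values were adjusted by Benjamini-Hochberg over all genes tested and called at 0.05. SE is the absolute log2 fold change over the root of F. For single tumors, log2 values were TMM-scaled with 2 as prior count, whereas CPM are unscaled UMIs per 1000000 UMIs of a zone.

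The 8 genes, the score list and the pathway and marker lists were chosen with earlier results of these data known, and the low-UMI area (Otsu threshold on log2 of smoothed UMIs) was compared with the rest after the maps were seen. Named genes were the 8, the pathway genes called with the largest differences, and the 3 genes most alike each of them over patches, at 20 or more CPM for candidates and 10 or more for the gene itself. DESeq2 1.42.0, other scalings, filters, depths, zones and scores were tried as alternatives. Under these, single genes were followed for the 8 only, so calls of pathway genes and MUC1 partners were not checked. Promoters came from RefSeq on GRCh38.p14. R 4.3.3 and Python 3.11.15 were used.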

Additional observations from a re-analysis of the deposited data

How the results depend on the processing

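ERRFI1 and TGFA passed between score quartiles in 13 of 13 alternatives. The count of genes called there (2435) was 630 without the tumor block, 392 with DESeq2 and 678 with spots thinned to 2000 UMIs, where fewer genes were tested. Library size alone put the median of all genes at -0.115 and called 848 higher and 2439 lower, against 1346 higher and 1089 lower. The near against far count (7) was 54 without filterByExpr, 0 without the tumor block, 0 with DESeq2, 77 without matching, 36 without other-cell-rich spots, 4 when thinned and 61 when split at the median. The inner against outer count (836) was 394 with library size alone, 41 without the tumor block, 96 with DESeq2 and 1395 with the frame edge as border. The low-UMI area count (452) was 942 with library size alone (286 higher and 656 lower, median of all genes -0.117), 15 without the tumor block, 69 with DESeq2 and 1025 without matching. Without filterByExpr it had 329 higher and 231 lower. The causes were not tested.

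Of the log2 values that changed sign, none had passed the test under either setting. Between quartiles EREG was 0.1395 with the score not smoothed and 0.04431 with odd score genes, and between inner and outer spots 0.1058 with the frame edge as border. Near against far, thinning gave EGFR -0.1618, ERBB2 0.3478, AREG -0.05279 and ERRFI1 0.1127. There, leaving out other-cell-rich spots gave ERBB2 0.06155, EREG 0.1765 and HBEGF 0.001448, and the median split gave ERBB2 0.02633, EREG 0.1499, TGFA -0.1773 and MUC1 0.09563. Leaving out the low-UMI area gave EREG 0.3987, ERRFI1 0.009551 and MUC1 0.06534, DESeq2 gave ERRFI1 0.002166 and MUC1 0.01418, and no matching gave ERRFI1 0.1524 and MUC1 0.02649. In the low-UMI comparison library size alone gave TGFA -0.04673. Under thinning EREG had no value between quartiles or near against far, nor TGFA and MUC1 near against far, since the filter removed them.

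With 2 tumors and 1 residual degree of freedom, calls lean on spread borrowed across genes, and a single tumor gives a value with no test. Sections are the unit, so no statement about tumors at large is made. EREG, at 26 UMIs in a zone, is limited by depth.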
